A study of Acomys cahirinus and Mus musculus with 10 samples.

Results

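The hair shaft and root sheath genes are a list of 34 genes. It holds the keratins of the hair shaft and of its inner root sheath, their companion proteins, and the factors that specify these layers. The genes were listed by name from what they are known to do in the follicle, with earlier results of these data known. Of the 34, 32 were matched to a gene number of the *M. musculus* tables, which hold 24092 numbers. In *A. cahirinus*, 27 were matched to a component of the assembled transcriptome, which holds 676820 components. A component is a set of assembled contigs that the assembler treated as 1 locus. These 27 genes fell on 25 components, since *Krt31* and *Krt33a* shared 1 and *Krt81* and *Krt86* shared 1. Both species had a value for 26 genes. *Krt85* had a value in neither species and was not analysed here. *Krt81* had no number of its own in *M. musculus*. In *A. cahirinus*, *Krt27*, *Krt28*, *Krt36*, *Krt74*, *Krt83* and *Krt84* had no component of their own.

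RNA was sequenced from the ear pinna of *A. cahirinus*, a spiny mouse whose wounded tissue is labelled regenerating, and of CD1 *M. musculus*, a laboratory mouse whose wounded tissue is labelled fibrotic. Groups were uninjured tissue (D0) and tissue taken 5, 10, 15 and 20 days after a hole of 4 mm was punched through the pinna (D5 to D20). By the study's methods, each of the 10 groups held 3 sexually mature females, and a ring about 1 mm wide around the hole was taken. For these groups the study names no transgene and no treatment other than the wound. A ring of this kind holds skin, cartilage and muscle together, so fewer cells of a type and less RNA per cell cannot be told apart.

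A hair is made by matrix cells at the base of the follicle, which divide around the dermal papilla and differentiate as they move up. They form concentric layers. The inner root sheath moulds the growing shaft and hardens with trichohyalin, and the shaft itself is built of hair keratins held together by keratin-associated proteins. The inner root sheath and the differentiating cells of the shaft are present while a follicle grows and are lost while it rests.

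Levels are mean normalised read counts per library, recovered for each group from the deposited tables and placed on the scale of the D5 table of the species. A change is the log2 ratio of the mean plus 1 at a day to the mean plus 1 at D0, and is positive where the level was higher after the wound. A change was called when it was at least 1 in size and the higher mean of the pair was at least 10. A gene with a D0 mean below 10 could therefore be called higher but not lower. The tables hold 1 pooled mean per group and no value per animal. The posterior probabilities of the authors' own test over animals were not used. No spread between animals, replicate test or p-value is therefore given here, and the intervals given with changes are 95% intervals of counting error alone. They were computed for the ratio of the means without the 1 added, so from a low D0 mean they need not centre on the change.

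Summed means per group, each on the scale of its own table, were 7330084 to 9409080 in *M. musculus* and 14454829 to 18203633 in *A. cahirinus*, and this range includes differences in scale between tables. Low means moved in 3 steps in each group, as 3 libraries would give, other than *A. cahirinus* D15 with 2 steps. The cause of that difference was not tested, and intervals for that group were set for 2 libraries. *Tbp*, the control gene of the study, had log2 changes of -0.43 to -0.51 in *M. musculus* and of -0.22 to 0.06 in *A. cahirinus*, while the median over all features with a mean of at least 10 lay between -0.02 and 0.02. Markers of epidermis, sebaceous gland, muscle and cartilage were present at D0 in both species. At D0 the 10 listed genes of interfollicular epidermis summed to 141545 in *M. musculus*, and the 8 found in *A. cahirinus* to 36429.

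In *M. musculus*, most hair shaft and root sheath genes were called higher from D10 on, while 24 of 32 were not called at D5. Only 15 of the 32 reached a mean of at least 10 at D0 or D5, so the others could not be called on that day. At D5, 1 of 32 genes was called higher and 7 lower, where 8.57% and 7.74% of 20303 named genes were called in those directions. At D10, 24 of 32 were called higher and 1 lower, against 8.17% and 6.93% of named genes. At D15 the counts were 26 higher and 1 lower, against 8.27% and 6.26%, and at D20 they were 27 and 1, against 6.77% and 4.97%. From D10 to D20, genes with a D0 mean below 10, among them all 8 type I shaft keratins, could not be called lower. The median change over the 32 genes was -0.62, 4.28, 6.04 and 6.01 from D5 to D20. Relative to *Tbp*, the D5 split was 2 higher and 2 lower, and the D5 median was -0.12.

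**Figure D1:**
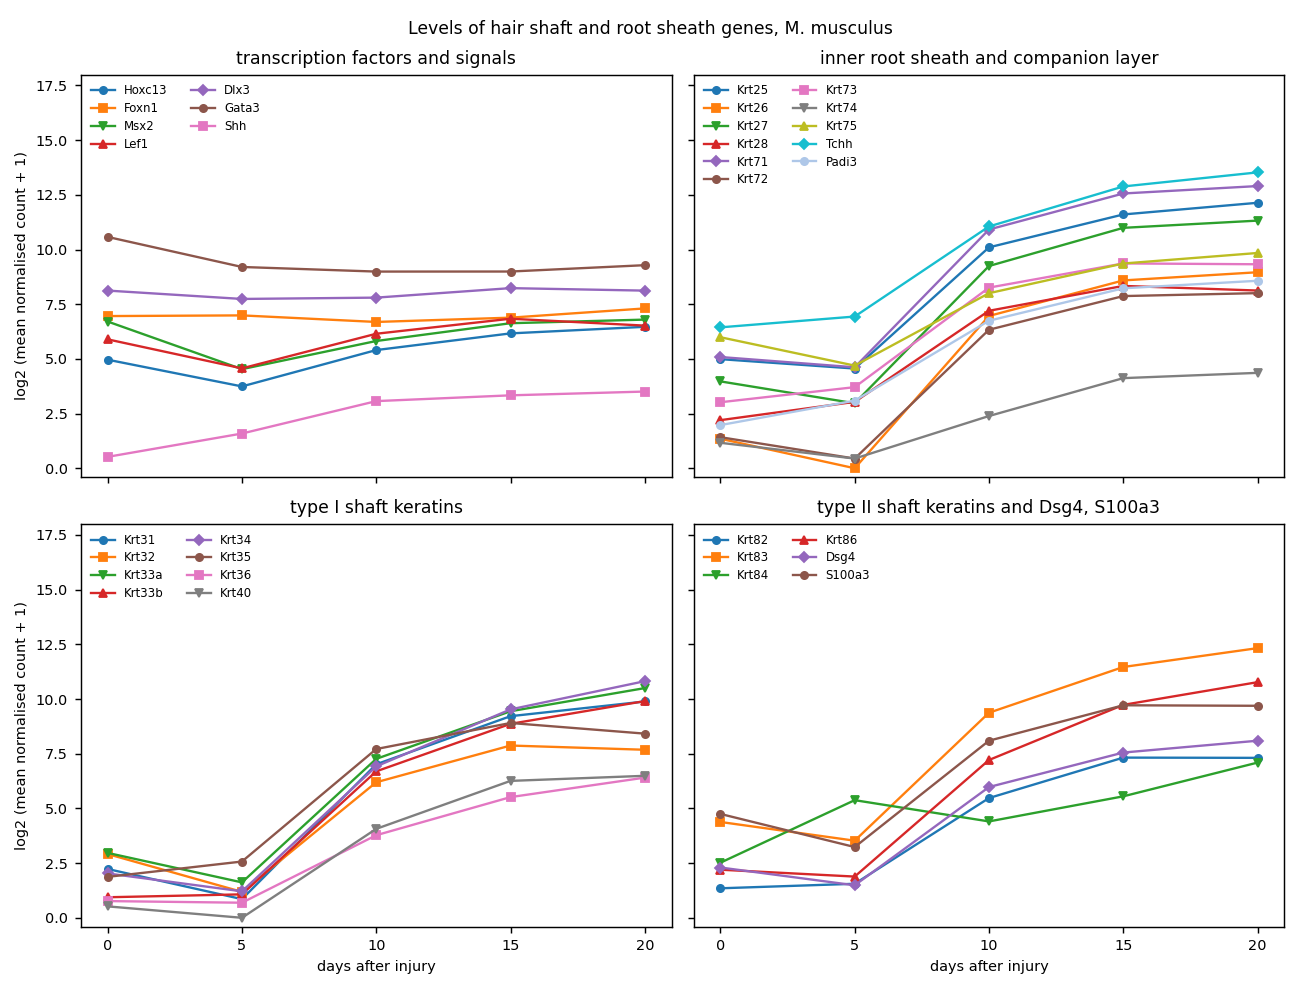
Levels of the 32 genes in *M. musculus* by day after injury, as log2 of the mean normalised count plus 1, in 4 panels by role. Each point is 1 pooled group mean and carries no error bar. Most lines of sheath and shaft genes lie low at D0 and D5 and climb from D10, other than *Krt84*, which is already higher at D5. The line of *Gata3* drops after D0, and those of *Dlx3* and *Foxn1* stay within a narrow band.

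From D10 on, the transcription factors and signals had the smallest median change of the 5 roles. *Gata3*, which specifies the inner root sheath and is also made by other skin cells, had a mean of 1526 before injury and 588, 508, 509 and 623 from D5 to D20. It was the only one of the 32 genes called lower on all 4 days, with changes of -1.37, -1.58, -1.58 and -1.29. Relative to *Tbp* it was not called at D5 or D20. *Msx2*, a homeobox factor of the hair matrix, went from 104 at D0 to 22.1 at D5 and then to 55.4, 98.1 and 110.1. It fell by 2.18 on the log2 scale at D5 (interval -2.64 to -1.85) and stood within 0.09 of its uninjured level at D15 and D20.

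*Lef1*, the partner of beta-catenin in Wnt signalling, followed a similar path. Its means were 58.4, 22.7, 70.0, 113 and 90.9 over the 5 groups, in order of day. The D5 change was -1.33 and was called, while those of the later days were 0.26, 0.94 and 0.63 and were not. Relative to *Tbp*, the D15 and D20 changes of *Lef1* were called higher, at 1.38 and 1.14, and its D5 change was not called. *Foxn1*, which drives the terminal program of the shaft cortex, had means of 123, 126, 102, 117 and 157 from D0 to D20. *Dlx3*, a homeobox factor of matrix and sheath, had 278, 213, 222, 300.3 and 277. Neither *Foxn1* nor *Dlx3* was called on any day.

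*Hoxc13*, which acts directly on hair keratin genes, and *Shh*, the secreted signal of the hair matrix, had highest means of 87.4 and 10.4. *Hoxc13* was called lower at D5 (-1.22) and higher at D15 (1.2) and D20 (1.5). *Shh* was called higher at D20 alone, when its mean first reached 10. Over the 7 factors and signals the median change was -1.22 at D5 and 0.35 at D20, and 4 were called lower at D5. Relative to *Tbp*, only *Msx2* of these 4 was called at D5, and *Hoxc13* had -0.72.

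All 11 genes of the inner root sheath and the companion layer were called higher at D15 and D20, and 10 at D10. *Krt71* lies on chromosome 15 of GRCm38, from 101733949 to 101743109 on the minus strand, and encodes the main type II keratin of the sheath. Its mean was 33 in uninjured ear, then 23.5, 1929, 6043 and 7647. The D10 and D20 levels stood 57.1-fold and 226-fold above D0 on the scale of means plus 1 (log2 changes 5.84, interval 5.61 to 6.14, and 7.82, interval 7.58 to 8.15). No other gene of the list had as high a level per kilobase of transcript at D20, at 3518.

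*Tchh* encodes trichohyalin, the protein that fills and hardens sheath cells, and lies on chromosome 3 from 93442330 to 93449077 on the plus strand. Its means were 85.9 before injury and 121, 2125, 7551 and 11797.5 from D5 to D20. This was the highest mean of the list, and its transcript of 5823 bases gave a level per kilobase of 2026, below those of *Krt71*, *Krt83* and *Krt25*. The changes of *Tchh* were 4.61 at D10 and 7.09 at D20. *Padi3*, the deiminase that modifies trichohyalin, had means of 2.93, 7.52, 106, 299 and 379. The transcripts of both genes were called higher from D10 on. *Tchh* was not called at D5, and *Padi3*, with means of 2.93 and 7.52 at D0 and D5, could not be.

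*Krt25*, *Krt26*, *Krt27* and *Krt28* are the type I keratins that pair with *Krt71* and its relatives in the sheath, and lie side by side on chromosome 11. *Krt25* had means of 30.7, 22.6, 1096, 3109.8 and 4501 from D0 to D20. *Krt27* had 14.7, 6.84, 606, 2035 and 2558, and was called lower at D5 with a change of -1.0, which was -0.50 and not called relative to *Tbp*. *Krt26* was listed at 0 at D5 and had means of 1.55 at D0, 124, 384 and 497 from D10 on. *Krt28* went from 3.59 to 7.2, 146, 322 and 278. All 4 were called higher from D10 on, with D10 changes between 5.06 and 5.72, and *Krt28* alone of the 4 was lower at D20 than at D15.

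The type II sheath keratins other than *Krt71* are layer specific. *Krt72* and *Krt73*, of the sheath cuticle, had means of 1.68, 0.360, 79.6, 233 and 256 and of 7.10, 12.1, 305, 658 and 641. *Krt74*, found in Huxley's layer, stayed under 20 and was called from D15 on. *Krt75* marks the companion layer between inner and outer sheath, and had means of 62.6, 24.9, 256, 656 and 917. It was called lower at D5 (-1.30, or -0.80 and not called relative to *Tbp*) and higher at D10 (2.02), D15 (3.37) and D20 (3.85), so it began from a higher level than most sheath genes and rose by less.

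All 8 type I keratins of the hair shaft were called higher at D10, D15 and D20. None could be called in either direction at D5, since all 8 had means below 10 at D0 and D5. The cortex keratins *Krt31*, *Krt33a*, *Krt33b* and *Krt34* form a row on chromosome 11 between 100011195 and 100050551. *Krt34* had means of 3.08, 1.31, 120.3, 737 and 1802 over the 5 groups, in order of day. *Krt33a* had 6.82, 2.07, 153, 695 and 1448. Each of these genes was still climbing at D20, when *Krt34* stood 448-fold and *Krt33a* 187-fold above D0 on the scale of means plus 1.

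*Krt33b* went from 0.917 at D0 and 1.1 at D5 to 103, 466 and 959. Its D20 change of 9.01 was the largest of the list, from a D0 mean below 1. Its interval of 8.43 to 12.26 overlapped those of other genes, such as *Krt34* (8.27 to 10.22) and *Krt86* (8.13 to 9.98). *Krt31* went from 3.69 and 0.806 to 129, 594 and 947. *Krt35*, which is made in matrix and lower cortex at the start of shaft differentiation, had means of 2.66, 4.94, 209, 479 and 341, and *Krt32*, of the shaft cuticle, had 6.53, 1.27, 72.3, 234 and 204. These 2 genes were highest at D15, unlike the cortex keratins. *Krt36* and *Krt40* stayed under 100 and were called from D10 on.

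The type II shaft keratins pair with these in the same fibres. *Krt86* had means of 3.59, 2.69, 147, 850.5 and 1747 from D0 to D20, and *Krt82*, of the shaft cuticle, had 1.55, 1.94, 43.4, 159 and 158. The gene number named *Krt83* had means of 19.8 in uninjured ear, then 10.5, 663, 2826 and 5140.5. In the reference, transcripts of *Krt87*, *Krt81* and *Krt83* follow one another at this number, so their reads cannot be told apart. Of all 50-base stretches of the *Krt83* transcript, 62.6% also occurred in a transcript of another gene, and the share was 43.3% for *Krt86*, 33.2% for *Krt34*, 28.1% for *Krt31*, 24.2% for *Krt33b* and 22.0% for *Krt33a*. How reads were split within these 6 genes is uncertain. It was under 5% for 24 of the 33 genes with a transcript.

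*Krt84*, found in the shaft cuticle and in tongue, moved apart from the rest. Its means were 4.73 before injury and 40.6, 20.2, 45.9 and 136 from D5 to D20. It was the only gene of the list called higher at D5, with a change of 2.86 (interval 2.32 to 4.04), although *Krt73* was called too relative to *Tbp*, with 1.19, on a day when *Krt16*, a keratin of wounded epidermis, went from 40.5 to 35221.5. Whether the cells that made *Krt84* at D5 and D20 were the same was not tested.

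*Dsg4* encodes the desmosomal cadherin of the shaft, and *S100a3* a calcium-binding protein of the shaft cuticle. *Dsg4* had means of 3.92, 1.80, 62.0, 187 and 272. *S100a3* had 25.9, 8.41, 273, 839.5 and 826, and was called lower at D5 with a change of -1.51. Both were called higher on the 3 later days, with D20 changes of 5.81 and 4.95.

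The genes of *M. musculus* did not reach their D20 level at the same pace. As a share of its own D20 level, the D10 level was 61.3% for *Krt35* (interval 55.8 to 67.3), 52.5% for *Krt28*, 47.6% for *Krt73* and 35.4% for *Krt32*. It was 25.2% for *Krt71* (24.6 to 25.9), 24.4% for *Krt25*, 23.7% for *Krt27* and 18% for *Tchh*. The lowest shares were those of *Krt34* at 6.67% (6.04 to 7.36), *Krt86* at 8.44%, *Krt33a* at 10.6%, *Krt33b* at 10.7%, *Krt83* at 12.9% and *Krt31* at 13.6%. Median shares were 25.2% over the 11 sheath and companion genes, 14.3% over the 8 type I and 13.9% over the 4 type II shaft keratins. Most neighbours in this order had overlapping intervals. The exceptions were the steps from *Krt83* to *Krt33b*, from *Krt33a* to *Krt86* and from *Krt86* to *Krt34*. All the genes of these steps, and *Krt31*, are the shaft keratins given above whose split of reads is uncertain because of shared sequence. Counting error leaves out that uncertainty and the spread between animals, so the order among these keratins was not resolved.

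At D15 *Krt35* again stood highest of the sheath and shaft genes. It stood at 140% of its D20 level (129 to 152), *Krt28* at 116% and *Krt32* at 114%, while *Krt34* stood at 40.9% and *Krt84*, which had been at 14.9% at D10, was last at 33.9%. The summed level of *Krt31*, *Krt33a*, *Krt33b* and *Krt34* over that of *Krt25* to *Krt28* was 0.145, 0.256, 0.426 and 0.658 from D5 to D20, against 0.287 at D0. Cortex keratins thus gained on sheath keratins from D5 to D20.

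**Figure D2:**
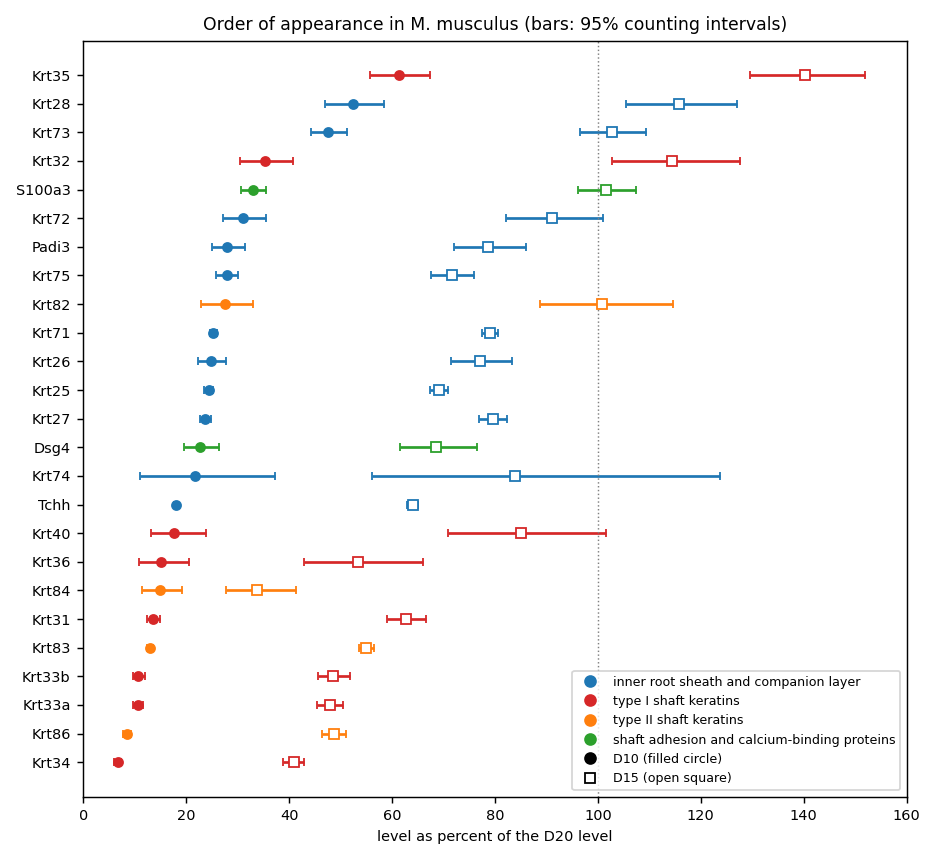
Level at D10 (filled circles) and D15 (open squares) as a percent of the D20 level, for 25 sheath and shaft genes of *M. musculus*, in order of their D10 share. Bars are 95% counting intervals and colours mark roles. *Krt35* heads the order at 61.3% and 140%, and *Krt34* ends it at 6.67% and 40.9%.

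The other keratins of the same clusters were counted beside these genes. The type I cluster of chromosome 11 holds 12 of the genes, between 99315516 and 100105626, and 15 other keratins with a value. Of those 15, 2 were called higher and 5 lower at D10, and 5 and 1 at D20. On chromosome 15 the type II cluster holds 9 of the genes, between 101473478 and 101802346, and 14 other keratins, of which 3 were higher and 2 lower at D10, and 5 and 1 at D20. Among all named genes 8.17% were higher and 6.93% lower at D10, and 6.77% and 4.97% at D20. *Krt39*, a hair keratin of the type I cluster that was picked out after its values were seen, went from 0.328 at D0 to 7.49 at D10 and 78.1 at D20. The epidermal keratin *Krt10* of the type I cluster went from 36865 at D0 to 54774 at D10 and 27276 at D20.

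Keratin-associated proteins form the matrix between keratin filaments of the shaft, and are made late in its differentiation. Of 53 named *Krtap* genes with a value in *M. musculus*, 41 were called higher and 1 lower at D10, 48 higher at D15 and 52 at D20, where 8.17%, 8.27% and 6.77% of named genes were called higher. At D5, 2 of 48 were called lower, against 7.74% of named genes. The low sums at D0 and D5 that follow left few of the 48 able to reach a mean of 10. Their summed level was 235, 57.9, 1290.2, 7737 and 18319 over the 5 groups, in order of day. *Krtap3-2*, picked out after its values were seen, held 150.5 of the D0 sum and 28.0 of that at D5. *Krtap7-1*, the gene of this list with the highest mean, went from 4.49 at D0 and 0.277 at D5 to 82.3, 574 and 1553. Its D10 level was far below its D20 level, as for *Krt34*.

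Other genes of the follicle were given by list. Of 39 listed signals, regulators and enzymes of hair growth, 33 had a value at D20 in *M. musculus*, with 5 called higher, 2 lower and a median change of 0.26. Over all named genes 6.77% were higher and 4.97% lower on that day, and 8.17% and 6.93% at D10. The highest by mean were *Notch1*, *Lgals7* and *Bmpr1a*, none of which was called at D20 (changes of 0.16, 0.18 and -0.04). Among 15 genes of the outer root sheath and follicle stem cells, 5 were called higher and 3 lower at D10. *Krt14*, the highest by mean, was at 14788 at D0 and 28537 at D10, and *Krt6b* at 32.6 and 12806. *Krt15*, named here after its values were seen, fell from 3410 at D0 to 790.5 at D5 and 938 at D10. The sum of the list went from 38240.4 at D0 to 247148 at D5 and 85879 at D10. Of the D5 sum, *Krt14*, *Krt6b*, *Krt6a* and *Krt16* held 70354, 58314, 46661 and 35221.5. *Krt5* and *Krt14* are also on the list of interfollicular epidermis. The dermal papilla list had 5 of 14 higher and 3 lower at D10, with *Vcan* rising from 522 to 4919 and *Wif1* and *Corin* falling by 3.22 and 4.22 on the log2 scale.

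Markers of other cell types of the ear moved too. In *M. musculus*, the summed level of the 10 epidermal markers was 141545 in uninjured ear, then 309601, 211133, 169583 and 111699. The 5 sebaceous gland markers went from 3674 to 1503, 1086, 1151 and 1705, and the 6 melanocyte markers from 600.1 to 267, 396, 476 and 680.4. Skeletal muscle markers fell in all 5 genes on each day, from a sum of 50717 at D0 to 6243 at D20, and the 6 cartilage markers summed to 4460.4 at D0 and 4615 at D20. From D0 to D10 the sum over sheath and companion genes went from 245 to 6777. The part of these cell types in the results was not tested.

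**Figure D3:**
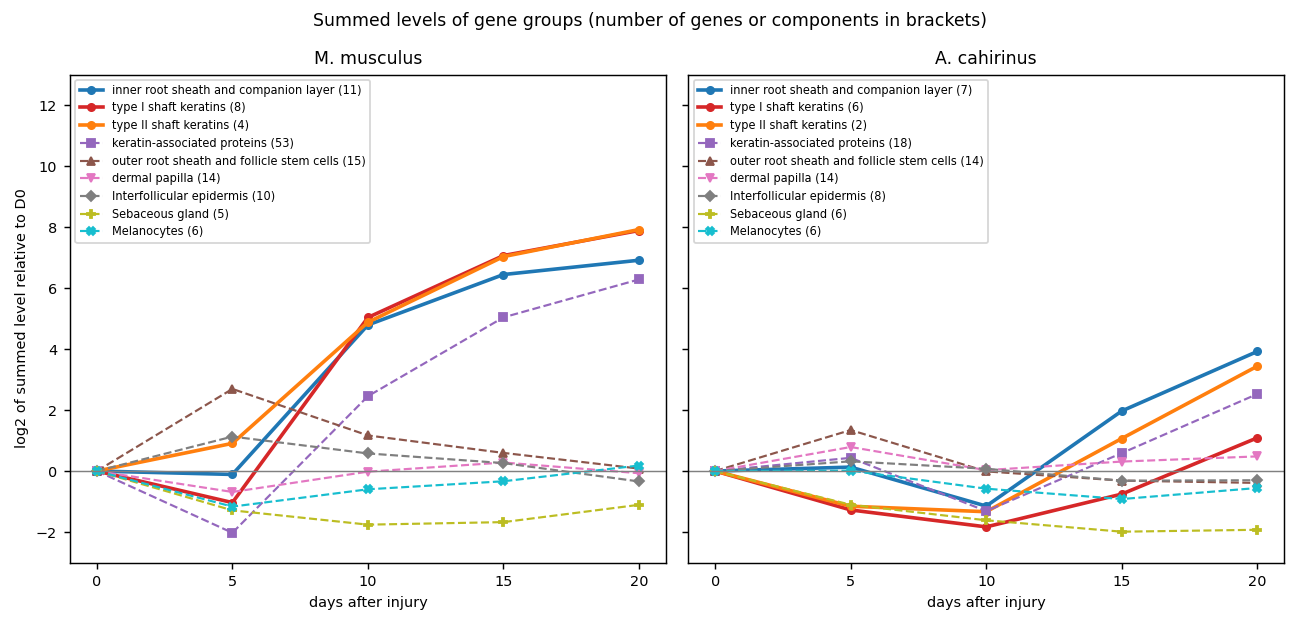
Log2 of the summed level of gene groups relative to D0 by day after injury in *M. musculus* (left) and *A. cahirinus* (right), with the number of genes or components in brackets. Solid lines are hair shaft and root sheath groups and dashed lines are other lists, and the *A. cahirinus* component of *Krt71* is left out. In *M. musculus* the sheath and shaft groups climb from D10, and in *A. cahirinus* they are highest at D20.

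In *A. cahirinus*, no component of these genes was called higher before D15, and most calls higher came at D20. At D5, 0 of 25 components were called higher and 4 lower, where 12.1% and 6.21% of named genes were called in those directions. At D10 the counts were 0 of 24 higher and 6 lower, against 8.25% and 5.22%. Only 12 of the 24 reached a mean of at least 10 on that day or at D0, and at D5 only 12 of 25, so the others could not be called. At D15, 5 of 25 were called higher and 2 lower, against 7.7% and 6.15%. At D20, 14 of 25 were called higher and 2 lower, against 5.72% and 6.56%. On that day 21 of the 25 reached a mean of at least 10 in either group. Those below 10 at D0, such as *Krt73* and *S100a3*, could be called higher but not lower. The median change was -0.32, -0.80, 0.16 and 1.89 from D5 to D20, and 1.80 at D20 with the 2 components listed at 0 at D0 set to 3 counts over the group. Relative to *Tbp*, 15 were higher and 0 lower at D20. With no least mean, 10 components were lower at D10, and with a pseudocount of 10 the D20 median was 0.84.

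**Figure D4:**
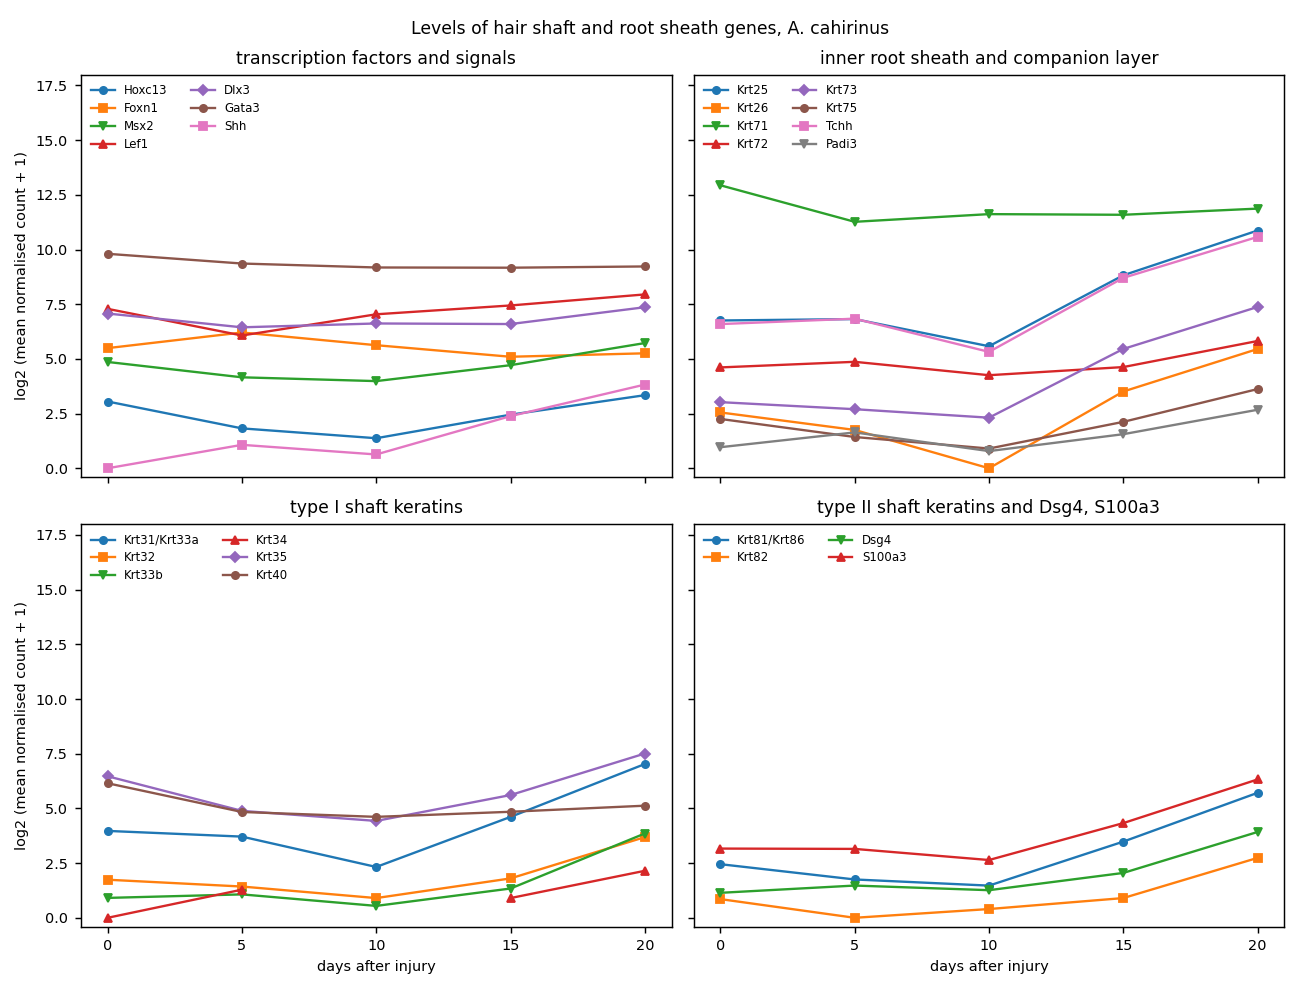
Levels of the 25 components in *A. cahirinus* by day after injury, as log2 of the mean normalised count plus 1, in the same panels and on the same scale as for *M. musculus*. Each point is 1 pooled group mean and carries no error bar. Most sheath and shaft lines dip at D10 and rise to D20, and the line of the *Krt71* component lies above the rest on each day.

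The component matched to *Krt71* needs its sequences read beside its values. It was the highest of the list in *A. cahirinus*, with means of 7839.7 before injury and 2463, 3143, 3078 and 3743 from D5 to D20. It was called lower on all 4 days, with changes of -1.67, -1.32, -1.35 and -1.07, and relative to *Tbp* the last was -0.89 and not called. Of the 11 contigs of this component with a BLASTN hit, 2 were nearest to *Krt71*, 8 to *Krt2* and 1 to *Krt77*. *Krt2* and *Krt77* are keratins of interfollicular epidermis and sweat duct and no part of the hair. In *M. musculus*, *Krt2* went from 44697 at D0 to 20769 at D5 and 27319.8 at D20, and *Krt77* from 1793 to 508 and 352. The component of *A. cahirinus* matched to *Krt2* itself had 6335, 1877, 2362, 1604 and 2574 from D0 to D20, and was called lower on all 4 days. A table gives 1 mean per component, so the share of *Krt71* in it could not be read.

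The stretches that follow show how close these contigs are to each mouse gene, all in coding sequence and from 5′ to 3′. Capitals mark bases that differ between the 2 sequences of a pair. The first pair is from coding bases 508 to 627 of *Krt71*, which were 95% identical in the contig.
Krt71 M. musculus: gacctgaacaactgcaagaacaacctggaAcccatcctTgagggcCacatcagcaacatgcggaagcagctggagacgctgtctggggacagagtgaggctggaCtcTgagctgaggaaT
Krt71 A. cahirinus: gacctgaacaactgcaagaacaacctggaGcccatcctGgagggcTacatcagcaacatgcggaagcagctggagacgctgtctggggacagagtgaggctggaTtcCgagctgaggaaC
The second is from coding bases 694 to 813 of *Krt2* (chromosome 15, 101810689 to 101818169, minus strand), with 84.2% identity to another contig of the same component.
Krt2 M. musculus: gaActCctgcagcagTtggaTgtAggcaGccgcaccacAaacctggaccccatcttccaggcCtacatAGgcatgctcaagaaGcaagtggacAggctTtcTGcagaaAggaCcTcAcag
Krt2-like contig A. cahirinus: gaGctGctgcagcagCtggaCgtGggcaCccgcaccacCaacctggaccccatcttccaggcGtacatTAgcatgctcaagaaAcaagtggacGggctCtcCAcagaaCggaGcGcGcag
The third is from coding bases 673 to 792 of *Krt77* (chromosome 15, 101858731 to 101869705, minus strand), with 87.5% identity to a further contig.
Krt77 M. musculus: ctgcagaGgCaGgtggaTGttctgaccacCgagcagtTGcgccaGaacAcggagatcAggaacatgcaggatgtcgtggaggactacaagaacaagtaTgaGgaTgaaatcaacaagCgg
Krt77-like contig A. cahirinus: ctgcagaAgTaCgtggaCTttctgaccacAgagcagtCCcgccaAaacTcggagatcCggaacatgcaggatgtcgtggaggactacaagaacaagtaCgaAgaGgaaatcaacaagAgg

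A pair of smaller components was also nearest to *Krt71* and rose. One had means of 17.6, 16.1, 7.23, 109 and 379 over the 5 groups, in order of day, with 90.25% identity over 441 bases. The other had 13.2, 13.1, 6.29, 91.0 and 322. Their D20 changes were 4.35 and 4.51, next to the -1.07 of the component with the higher alignment score, so the direction for *Krt71* in *A. cahirinus* depended on the component read. The first of these holds the start of the *Krt71* coding sequence, bases 1 to 120, shown here with the same use of capitals at 85.8% identity.
Krt71 start M. musculus: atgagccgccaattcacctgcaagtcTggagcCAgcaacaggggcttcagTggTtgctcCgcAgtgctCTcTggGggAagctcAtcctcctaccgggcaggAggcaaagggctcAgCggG
Krt71 start A. cahirinus: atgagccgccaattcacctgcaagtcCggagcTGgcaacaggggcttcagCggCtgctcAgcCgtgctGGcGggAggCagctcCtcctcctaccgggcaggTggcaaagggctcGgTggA

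The sheath keratin component nearest to *Krt25* had means of 107 in uninjured ear, then 112, 46.8, 451 and 1868. Of its 24 contigs with a hit, 12 were nearest to *Krt25*, 6 to *Krt27* and 6 to *Krt28*, so this mean is not that of *Krt25* alone. It was called lower at D10 (-1.18) and higher at D15 (2.07) and D20 (4.11, interval 3.96 to 4.29), and relative to *Tbp* the D10 change was -0.96 and not called. The first 120 coding bases of *Krt25* (chromosome 11, 99315516 to 99322951, minus strand) are shown because this gene and its component were called higher in both species, at 92.5% identity.
Krt25 M. musculus: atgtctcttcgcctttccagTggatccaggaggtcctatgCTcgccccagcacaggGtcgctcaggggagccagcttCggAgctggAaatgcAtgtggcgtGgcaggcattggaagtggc
Krt25 A. cahirinus: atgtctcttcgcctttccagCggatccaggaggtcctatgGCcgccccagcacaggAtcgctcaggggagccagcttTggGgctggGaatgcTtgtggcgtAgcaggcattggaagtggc

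The component of *Tchh* ran beside it in *A. cahirinus*. Its means were 95.4, 113, 39.0, 416 and 1526 from D0 to D20, with changes of -1.27 at D10, 2.11 at D15 and 3.99 at D20 (interval 3.83 to 4.18), all 3 called. *Krt73* had 7.12, 5.50, 3.97, 42.8 and 165, and was called higher at D15 (2.45) and D20 (4.35). The other sheath and companion components, of *Krt26*, *Krt72*, *Krt75* and *Padi3*, had highest means between 5.38 and 55.4, all at D20. Of the 8 components of this layer, 3 were called lower at D10 and 6 higher at D20.

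Shaft keratins of *A. cahirinus* had lower levels than the components of *Krt25* and *Tchh*. Contigs differed in length, and per kilobase at D20 the component of *Krt81* and *Krt86* stood at 233 and that of *Krt31* and *Krt33a* at 201. On that scale *Krt25* stood at 1119.5, *Tchh* at 1819 and *Krt73* at 131.5. The component shared by *Krt31* and *Krt33a* had means of 14.7 before injury and 12.1, 4.00, 23.4 and 129.6 from D5 to D20, and 1 of its 3 contigs was nearest to *Krt34*. It was called lower at D10 (-1.68) and higher at D20 (3.06). *Krt35* had 87.6, 28.6, 20.5, 47.9 and 181, was called lower at D5 (-1.58) and D10 (-2.05), and ended at a D20 change of 1.04. Of the 4 contigs of this component, 2 were nearest to *Krt35*, 1 to *Krt33a* and 1 to *Krt34*. This component had the highest D0 level of the shaft keratins of this species. Its D20 level stood 2.06-fold above D0 on the scale of means plus 1.

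*Krt40*, named here after its values were seen, was called lower on all 4 days, with means of 70.0, 27.6, 23.5, 27.8 and 33.9. Its D20 change was -1.03, and -0.85 relative to *Tbp*, which is not called. The other shaft components had highest means between 3.43 and 51.4, each at D20, and *Krt34* was not listed at D10. Of these, *Krt32*, *Krt33b* and the component shared by *Krt81* and *Krt86* were called higher at D20. *S100a3* and *Dsg4* were called higher at D20 with changes of 3.16 and 2.79, at means of 79.1 and 14.2.

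Few factors and signals of *A. cahirinus* were called. *Lef1* had means of 155, 66.2, 131, 173 and 246 from D0 to D20 and was called only at D5, with -1.22. *Gata3* had 893, 656, 579, 575 and 598, with changes from -0.44 to -0.64 that were not called. *Dlx3* had 134, 86.0, 97.3, 95.5 and 163. *Foxn1*, *Msx2* and *Hoxc13*, with highest means of 72.9, 51.8 and 9.13, were called on no day, other than *Msx2* at D20 relative to *Tbp*, with 1.04. *Shh* was listed at 0 at D0 and had 1.1, 0.548, 4.22 and 13.2 at the later days, and was called at D20, when 1 of the 7 genes of this role was.

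The same shares were read in *A. cahirinus*. At D15, the sheath and shaft components with a D20 mean of at least 10 stood at 11.4% to 82.2% of their D20 level. *Krt33b*, *Krt32*, *Krt75* and *Dsg4* reached 10 only at D20, with D15 means of 1.53, 2.48, 3.35 and 3.14. For them the limit itself favours a low share. Apart from the mixed *Krt71* component at 82.2%, whose smaller counterparts went from 109 at D15 to 379 at D20 and from 91.0 to 322, the highest shares were those of *Krt40* at 82.0% and *Krt72* at 42.8%. The rest stood at or below 29.7% with overlapping intervals between neighbours. *Tchh* was at 27.3% (25.4 to 29.2), *Krt35* at 26.4% (21.2 to 32.4), *Krt25* at 24.2% (22.6 to 25.8) and the component of *Krt31* and *Krt33a* at 18.1% (13.3 to 24.1). Of these 4, *Tchh* lay above the component of *Krt31* and *Krt33a* by more than counting error. At D0, *Krt40* and *Krt72* had stood at 207% and 42.3% of their D20 level, and *Krt35* and *Krt75* at 48.4% and 33.4%. A D15 share is therefore not by itself a rise from D0. For the ratio that follows, all components of a gene were summed, not the best alone, which gave 4 shaft and 4 sheath components. The summed level of *Krt31*, *Krt33a*, *Krt33b* and *Krt34* over those of *Krt25* to *Krt28* was 0.171, 0.134, 0.0948, 0.0637 and 0.0810 over the 5 groups, in order of day. The corresponding ratio in *M. musculus* rose from D5 to D20, and no test was made between the species. Levels in the ratio were not divided by length. The contig read for *Krt31* and *Krt33a* has 644 bases and that for *Krt25* has 1669, so the size of the ratio cannot be compared between the species.

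Keratin-associated proteins of *A. cahirinus* were found for 18 of the 53 listed genes. Over all named genes, 8.25% were called higher and 5.22% lower at D10, 7.7% and 6.15% at D15, and 5.72% and 6.56% at D20. Of the *Krtap* genes, 0 of 17 were called higher at D10, 1 of 18 at D15 and 13 of 18 at D20. Their summed level went from 78.6 at D0 to 106, 31.6, 118 and 452. With a sum of 31.6 at D10, few could reach the mean of 10 that a call higher needs. *Krtap3-3*, the highest by mean, had 11.7 at D0, 6.63 at D10 and 54.3 at D20. The sum was lowest at D10, when 2 of the 17 were called lower. Of 37 other genes of hair growth, 6 were called higher and 3 lower at D10, and 8 and 5 at D20, with *Calm4* going from 5189 to 15629 at D10 and *Jag1* not called. The outer root sheath and stem cell list had 2 of 14 called higher and 2 lower at D10, and *Krt15*, its highest by mean, went from 8873 at D0 to 21763 at D5 and 7547 at D10. In the dermal papilla list 4 of 14 were higher and 5 lower at D10, and *Vcan* went from 831 to 1717.

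Other cell types of the *A. cahirinus* ear moved as follows. The 8 epidermal markers summed to 36429 at D0, 45429 at D5, 38355 at D10 and 29555 at D20. The 6 sebaceous gland markers went from 18402 to 6011 at D10 and 4842 at D20, with *Scd1* falling by 4.23 on the log2 scale at D10, and the 4 muscle markers from 46358 to 5235 at D5 and 4277 at D20. Melanocyte markers summed to 877 at D0, 587 at D10 and 596 at D20, and the 5 cartilage markers to 5891, 5983 and 4543. Of the 6 sebaceous markers, 2 were called lower at D10 and 5 at D20, and of the hair components 6 of 24 and 2 of 25. Over all named genes 5.22% were called lower at D10 and 6.56% at D20. The hair components include the mixed one of *Krt71* on both days. Relative to *Tbp*, neither hair component called lower at D20, *Krt71* or *Krt40*, was called. The part of the other cell types in the results was not tested.

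Set side by side, the changes of the 26 genes with a value in both species differed most at D10 and D15. These are values from tables normalised separately, with different references and no shared samples, and the difference was not tested. The median of the *A. cahirinus* change minus the *M. musculus* change was 0.29, -5.03, -4.72 and -3.07 from D5 to D20. The change was lower in *A. cahirinus* for 10 of 26 genes on D5, 22 of 25 on D10, 25 of 26 on D15 and 21 of 26 on D20. The same count over all named genes was not made. The component shared by *Krt31* and *Krt33a* enters for both genes, and that of *Krt71* is mixed. *Hoxc13*, *Krt34*, *Krt82* and *Padi3* stayed under a mean of 10 in *A. cahirinus*. Where both species reached a mean of 10, the change was lower in *A. cahirinus* for 10 of 13 at D10 and 17 of 22 at D20. The higher of the D0 mean and the mean of the day was used for this limit. Some genes passed it only through their rise in *M. musculus*, such as *Krt35*, with 2.66 at D0 and 209 at D10. These counts are therefore no independent check of the direction.

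The genes outside this pattern were factors and signals. At D10 the change was higher in *A. cahirinus* for *Foxn1*, *Msx2* and *Gata3*, and at D20 for *Msx2*, *Lef1*, *Dlx3*, *Gata3* and *Shh*, none by more than 0.96. The structural genes differed by far more. *Tchh* had changes of -1.27 (*A. cahirinus*) and 4.61 (*M. musculus*) at D10, and of 3.99 and 7.09 at D20. *Krt35*, with the mixed component in *A. cahirinus*, had -2.05 and 5.92 at D10, and 1.04 and 6.57 at D20. *S100a3* had -0.53 and 3.36 at D10, and 3.16 and 4.95 at D20.

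Both species had more of these genes called higher at D20 than at D10. In *M. musculus* 24 of 32 were called higher at D10 and 27 of 32 at D20, against 8.17% and 6.77% of named genes. In *A. cahirinus* the counts were 0 of 24 and 14 of 25, against 8.25% and 5.72%. Components of *A. cahirinus* that reached a mean of at least 10 were 12 of 24 at D10 and 21 of 25 at D20. The 2 counts of that species are thus not out of equal numbers that could be called.

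**Figure D5:**
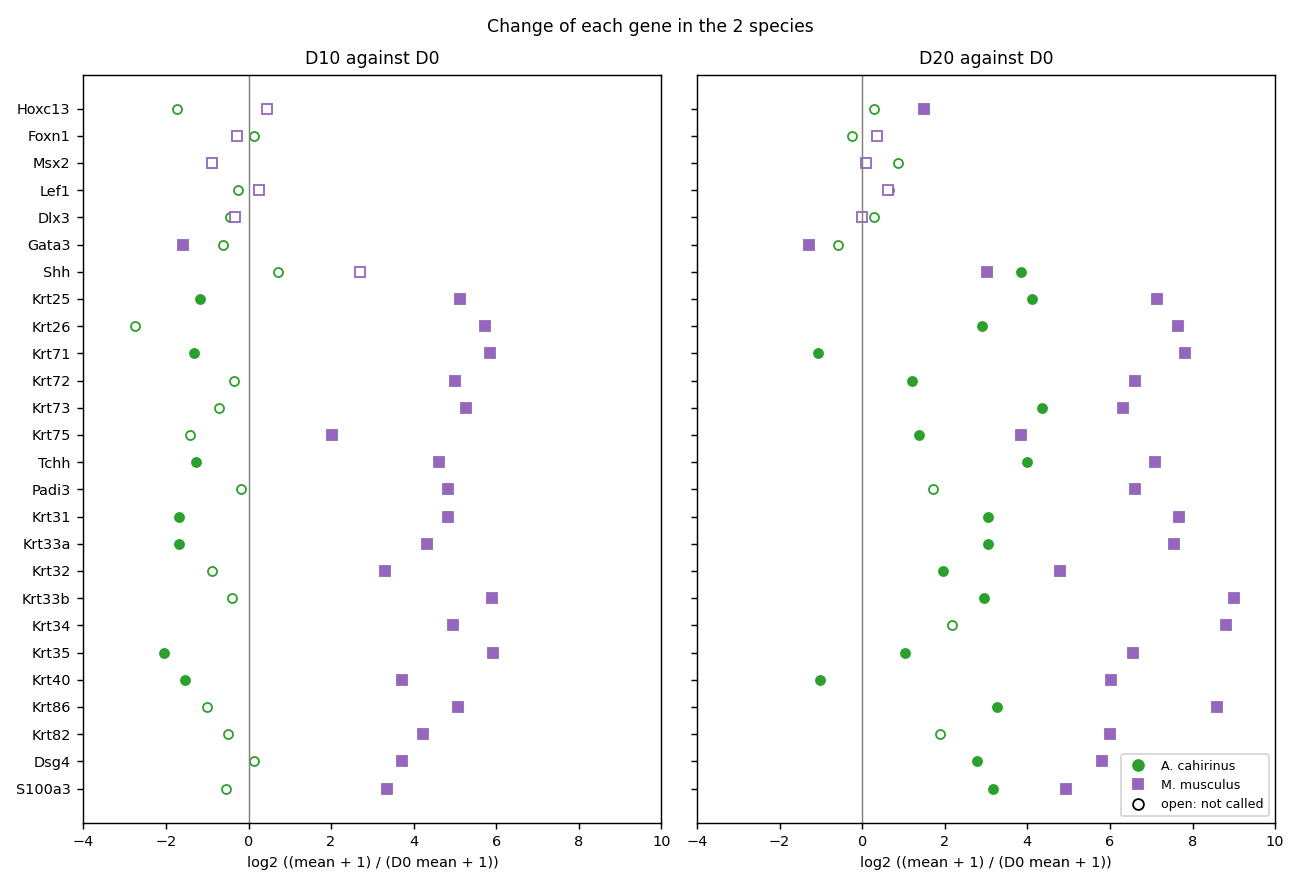
Log2 change of each of the 26 genes at D10 (left) and D20 (right) against D0, in *A. cahirinus* (green circles) and *M. musculus* (purple squares), with open symbols for changes that were not called. Values are ratios of pooled means plus 1 and carry no error bar. At D10 the *M. musculus* symbols of sheath and shaft genes lie to the right of zero and most *A. cahirinus* ones left of it, and at D20 most of both lie to the right, *Krt71* and *Krt40* of *A. cahirinus* apart.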

How the data were processed

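Total RNA of ear tissue was depleted of ribosomal RNA and sequenced as 50-bp paired ends. By the study's methods, the authors assembled the *A. cahirinus* reads with Trinity, used the mm10 annotation for *M. musculus*, aligned with Bowtie, estimated counts with RSEM and compared each day with D0 in EBSeq. The 8 deposited tables hold posterior probabilities of that comparison, which were not used, and a pair of fold ratios per feature. The authors computed 1 ratio from the normalised means and the other after shrinkage, and together they fix both group means. The ratios were used only to recover these means, and neither was printed or compared with the changes given here. A deposited BLASTN table gives percent identity, alignment length and bit score of contigs against mouse transcripts. Deposited reference files gave the sequences and the order of transcripts.

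*M. musculus* gene numbers carry no names. They were placed along GENCODE M21 (GRCm38, the build of mm10) by a hidden Markov model. Of 1992 known numbers held out, 1805 were placed, and 98.45% of those were right. An *A. cahirinus* component was taken for a gene when that gene was its top hit with the highest bit score, below 99% identity. The 6 components of these genes at or above 99%, for 2 genes, were left out, and the highest had a level of 4.20. Pseudocounts, thresholds and scaling were varied as given in the closing section. Counting intervals (95%) are Clopper-Pearson intervals for the share of 1 group in the summed counts of a pair, with 3 libraries per group and 2 for *A. cahirinus* D15, where 3 had been planned. Genes with a highest mean of at least 100 are given by day, and others by range and count. In lists of other genes, names were taken from the 3 with the highest mean unless said otherwise. A withheld item is not reported here. The genes and lists were chosen with earlier results of these data known. Scripts were tested on simulated data and used Python 3.11.15, NumPy 2.4.6, pandas 2.3.3, SciPy 1.17.1, matplotlib 3.10.9 and minimap2 2.31-r1302.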

Additional observations from a re-analysis of the deposited data

How the results depend on the processing

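No call count or median changed direction under the alternatives run, and those that moved are given here. With a pseudocount of 0.01 *A. cahirinus* had a D20 median of 2.49 and *M. musculus* one of 6.78. With a pseudocount of 10, the medians were 0.84 in *A. cahirinus* at D20 and 3.10, 4.45 and 4.51 in *M. musculus* at D10, D15 and D20. The same setting gave 3 components higher at D15 and 1 lower at D20 in *A. cahirinus*, and 4 genes lower at D5 in *M. musculus*. Relative to *Tbp*, *A. cahirinus* had 0 lower at D20, and *M. musculus* had 2 higher and 2 lower at D5, 0 lower at D20 and a D20 median of 6.52. With no least mean, *A. cahirinus* had 2 higher at D5 and 10 lower at D10, and *M. musculus* 3 higher and 11 lower at D5. With a least log2 change of 2, *A. cahirinus* had 0 lower at D5, 1 lower at D10, 3 higher and 0 lower at D15, and 0 lower at D20. The counts lower in *M. musculus* were then 1 at D5 and 0 at D10, D15 and D20. When a component was taken for a gene whatever its own top hit, *A. cahirinus* had 1 higher at D5, 1 higher at D10 and a D20 median of 1.04. When the components of a gene were summed, it had 1 lower at D20. Without *Krt71*, a choice made after seeing the data, it had 1 lower at D15 and 1 at D20. The cause was not tested where a threshold did not set it.

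No paired analysis was possible because the tables hold 1 pooled mean per group, and leaving out single animals was not run for the same reason. Changes from a D0 mean of a few counts have wide intervals, and sequence shared with other transcripts limits *Krt25*, *Krt27*, *Krt31*, *Krt33a*, *Krt33b*, *Krt34*, *Krt81*, *Krt83* and *Krt86*.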
